A study of Drosophila melanogaster with 9 samples.

Results

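The 32 genes described here code for subunits of the vacuolar proton pump (V-ATPase) of the fruit fly Drosophila melanogaster. They were chosen by name, as the rows of the deposited count table whose symbol begins with Vha followed by a subunit code, and they make up 32 of its 17759 genes. All 32 passed the filter on low counts and entered the test. RNA of whole larvae in their last instar was sequenced from cultures at low, medium or high density (5, 60 or 300 eggs in each ml of food), all on a diet of sugar and yeast. There were 3 libraries per density, 9 in all, and each held 10 pooled larvae taken while wandering, when they have left the food. The labels give neither the strain nor the sex of the larvae. Nothing in the labels says whether the 3 pools of a density came from separate cultures, so p-values measure the spread between these pools only.

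The V-ATPase is a rotary motor that spends ATP to move protons across a membrane. Its cytoplasmic V1 sector (subunits A to H) binds and hydrolyses ATP, and its membrane V0 sector (subunits a, c, c″, d and e) carries the protons, with subunit a directing the pump to a given membrane and the c subunits forming the rotating ring. The pump acidifies lysosomes and endosomes in every cell, and in insect Malpighian tubules and gut it also sits in the plasma membrane and powers ion and fluid transport. The fly genome holds several copies of many subunits. For this report the members were divided into 14 main copies, the widely expressed gene of each subunit plus the accessory protein VhaAC45, and 18 other copies. Of the other copies, 7 are known mainly from the testis of the adult fly: Vha68-3, Vha36-2, Vha14-2, Vha100-3, Vha16-5, VhaPPA1-2 and VhaAC39-2.

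Library totals ranged from 16822606 to 25141308 counts, and the 32 genes made up 0.39% to 0.452% of each library's counts. The smallest count of a main copy in any library was 1252, while VhaPPA1-2 and Vha16-4 had counts as low as 6 in medium replicate 3. In counts scaled to library size with TMM factors, high replicate 3 stood apart for the main copies, all 14 of which were lowest there. In levels per exon length (TPM, defined below) their sum was instead lowest in medium replicate 3, at 2608 TPM beside 2615 TPM in high replicate 3. Medium replicate 3 stood apart for the testis copies, all 7 of which were lowest there. For some of the results that rest on these libraries, values without them are also given. Whole-larva tissue was represented as labelled: transcripts of the fat body (Lsp2, Fbp1), salivary gland (Sgs3), muscle (Mhc, Act57B) and midgut (alphaTry) were all present, while labial (lab), a marker of the acid-secreting copper cells, averaged 1.05 to 1.55 CPM (counts scaled to library size) per density.

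Levels per exon length, in TPM (counts per exon length, scaled to the same sum in each library), separated the main copies from the rest. All 14 main copies had a higher mean TPM over the 9 libraries than any of the 18 other copies, from 67.9 TPM for Vha100-2 (subunit a) to 571 TPM for Vha16-1 (subunit c, the proton-binding ring). Vha16-1 ranged from 534 to 611 TPM and did not overlap with the next gene, Vha13 (subunit G, part of the peripheral stalk), at 273 to 332 TPM. Vha13 in turn did not overlap with Vha26 (subunit E, its partner in the stalk) at 212 to 252 TPM. From Vha26 downward each gene overlapped with its neighbour through Vha55 (subunit B, the non-catalytic nucleotide-binding subunit), VhaPPA1-1 (c″), Vha14-1 (F, in the rotor), VhaAC45, Vha68-2 (A, the catalytic subunit), Vha36-1 (D, the central rotor shaft) and VhaM9.7-b (e) to VhaAC39-1 (d), whose means ran from 217 to 133 TPM. VhaSFD (subunit H) averaged 108 TPM and Vha44 (subunit C) 69.8 TPM; these 2 V1 subunits were the lowest of their sector.

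At the boundary between the sets, Vha100-2 (61.5 to 75.8 TPM) overlapped with Vha100-1 (60.5 to 67.7 TPM), the subunit a copy known from neurons. The next of the other copies were VhaM9.7-c (mean 38.9 TPM), Vha68-1 (25.6 TPM), Vha68-3 (18.4 TPM) and Vha100-5 (15.5 TPM). The remaining 13 lay between 0.93 TPM for Vha100-4, a subunit a copy needed for acid secretion in the adult midgut, and 12 TPM for Vha16-3. The testis copies averaged 7.02 to 18.4 TPM.

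**Figure D1:**
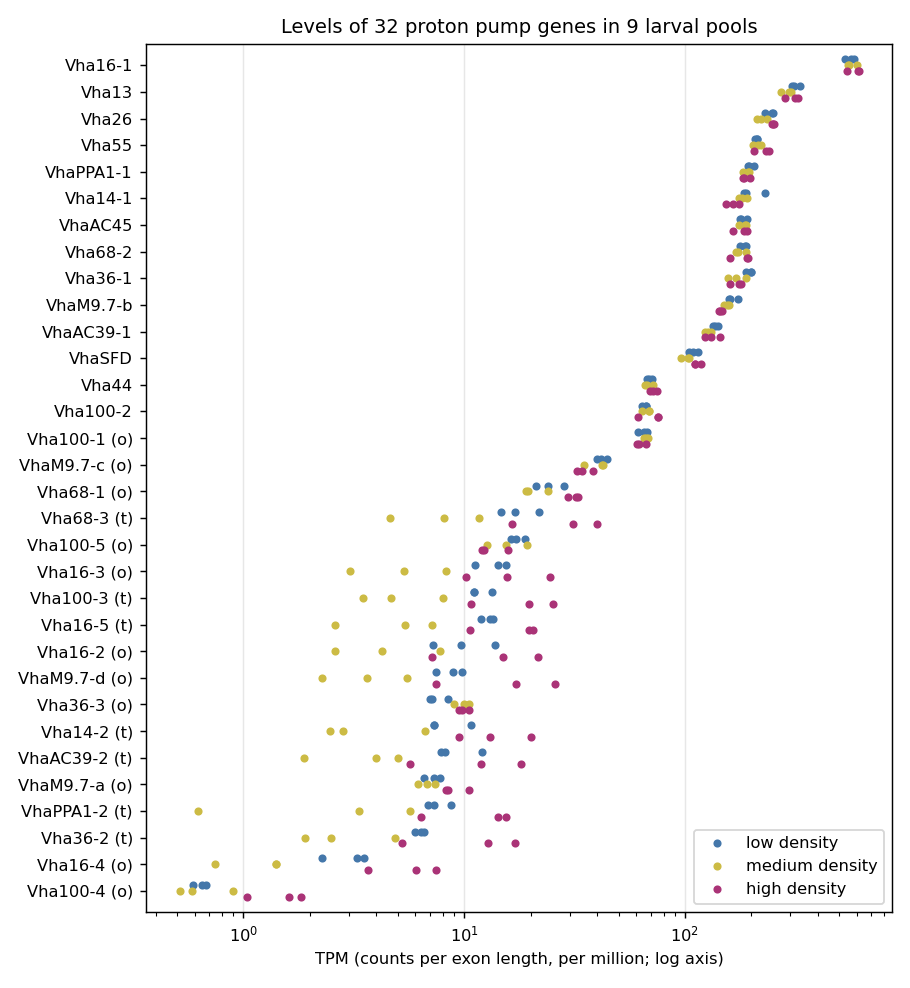
Level of each of the 32 genes in TPM on a log axis, 1 point per library and 1 colour per density; (t) marks testis copies and (o) the other copies outside the main set. Main copies fill the top of the plot with points close together, while testis copies such as Vha68-3 spread from 4.61 to 40.1 TPM, with the medium-density points on the left.

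The members lie on chromosome arms 2L (6 genes), 2R (8), 3L (5) and 3R (11) and on the X (2), in coordinates of the Release 6 assembly as the deposited table gives them. In 4 places copies lie side by side. Vha68-2 (2L, 12974322 to 12978607, plus strand) ends 178 bases before the testis copy Vha68-3 (2L, 12978786 to 12981293, plus strand). Vha100-4 (3R, 18386841 to 18389805, minus strand) and Vha100-2 (3R, 18390323 to 18399169, minus strand) are 517 bases apart. The subunit c copies Vha16-3 (3L, 11473291 to 11473972, plus strand) and Vha16-2 (3L, 11474958 to 11475552, plus strand) are 985 bases apart. VhaPPA1-2 (3R, 14899606 to 14900277, minus strand) and VhaPPA1-1 (3R, 14902330 to 14904061, minus strand) are 2052 bases apart, with 1 gene between them. In 3 of these pairs a main copy and another copy differed widely in level: Vha68-2 and Vha68-3 averaged 181 and 18.4 TPM, Vha100-2 and Vha100-4 averaged 67.9 and 0.93 TPM, and VhaPPA1-1 and VhaPPA1-2 averaged 192 and 7.63 TPM. The fourth pair, Vha16-3 and Vha16-2, had similar levels, with means of 12 and 9.89 TPM and overlapping ranges. No member overlaps the exons of another gene on its own strand, and 6 overlap one on the opposite strand, which strand-specific counting keeps apart. Fractions of shared reads entered the counts of 6 members, in at most 3 libraries each: Vha68-2, Vha68-1, Vha16-1, Vha26, Vha55 and VhaPPA1-1.

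The first comparison sets the highest density against the lowest, the extremes of crowding. Scaled with TMM factors, the main copies were slightly lower at high density and none rose, though with library totals alone their median against medium density turned to 0.015. The edgeR quasi-likelihood test called 6 of the 32 members at an adjusted p under 0.05, all lower (18.8% of the members; 11% of all 12883 genes tested were called lower), and 0 higher (4.18% of all genes). Of the 14 main copies 4 were called lower (28.6%), and the log2 fold changes of all 14 were below 0, with a median of -0.23 where the median over all genes was 0.06. In 8 of the 14 main copies all high libraries lay below all low ones in CPM (19.6% of all genes). Against medium density the picture for the main copies was much the same. Again 4 of 14 fell (28.6%; 18.3% of all genes were called lower), all 14 log2 fold changes were below 0, and their median was -0.23, beside 0.01 over all genes. The high libraries lay below the medium ones without overlap in 8 of the 14 (24.2% of all genes). Both comparisons share the high libraries. In the joint test of any difference among the 3 densities 15 of the 32 members passed, 3 main copies and 12 others (33.6% of all genes).

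Among the main copies of the V1 sector Vha14-1 (2R, 15679426 to 15680084, minus strand) had the largest log2 fold change in size in both comparisons. It measured 82.6, 99.5 and 82.4 CPM in the low, 91.5, 78.0 and 85.0 CPM in the medium and 68.6, 65.1 and 54.1 CPM in the high libraries, so every high library lay below every other. At high density it fell, with a log2 fold change of -0.49 against low (SE 0.12, edgeR adjusted p 0.0245) and -0.44 against medium (SE 0.12, edgeR adjusted p 0.0184). The call against low density was lost in 7 of 19 alternatives, among them upper-quartile factors, library totals alone and leaving out low replicate 1, 2 or 3 or high replicate 2. That against medium was lost in 5 of 19, among them both of these scalings and the fits without medium replicate 1 or 3. The adjusted p over all alternatives ran from 0.00237 to 0.0832 against low and from 0.0035 to 0.182 against medium. Vha36-1, the shaft subunit that Vha14-1 joins in the rotor, was called only against low density. It averaged 105 ± 13.3 CPM at high and 138 ± 5.05 CPM at low density (means ± SD, n = 3 each; log2 fold change -0.39, SE 0.11, edgeR adjusted p 0.0474). This call did not survive 13 of 19 alternatives: leaving out any 1 low library, high replicate 2 or 3 or medium replicate 2 or 3 was enough to lose it.

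The subunits that bind ATP were not called. Vha68-2 measured 335, 341 and 343 CPM in the low, 379, 323 and 335 CPM in the medium and 331, 299 and 237 CPM in the high libraries. Its high libraries lay below the low ones but were spread widely, and the log2 fold change of high against low was -0.23 (SE 0.12, edgeR adjusted p 0.246). Vha55 measured 392, 384 and 394 CPM at low, 434, 414 and 405 CPM at medium and 409, 379 and 309 CPM at high density. Its high libraries overlapped with both other groups (high against low -0.09, SE 0.10, edgeR adjusted p 0.554), and without high replicate 3 the value was 0.0175. The other 4 V1 main copies, Vha44, Vha26, Vha13 and VhaSFD, had log2 fold changes between -0.24 and -0.14 against low density and were not called in either comparison.

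In the V0 sector VhaM9.7-b (3L, 21539862 to 21541215, plus strand), the main copy of the small subunit e, fell in both comparisons. It measured 143, 125 and 129 CPM at low, 136, 130 and 131 CPM at medium and 110, 97.9 and 96.2 CPM at high density. All 3 high libraries lay below the other 6. The log2 fold change was -0.39 against low (SE 0.08, edgeR adjusted p 0.014) and -0.39 against medium density (SE 0.08, edgeR adjusted p 0.00909); the first call was lost without low replicate 1, low replicate 3 or high replicate 2. VhaPPA1-1, the c″ subunit of the ring, also fell in both, to a mean of 147 ± 11.1 CPM at high density, against 178 ± 9.26 CPM at low and 182 ± 7.16 CPM at medium density (SD, n = 3 each). It changed by -0.27 (log2; SE 0.08, edgeR adjusted p 0.0468) against low and by -0.30 against medium (SE 0.08, edgeR adjusted p 0.0164). The first was lost in 15 of 19 alternatives, among them every fit that left out 1 library other than high replicate 1. The second was lost in 4 of 19, among them upper-quartile factors, library totals alone and the fit without medium replicate 1.

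The 2 other V0 genes at the core of proton transport were not called. Vha16-1 measured 1117, 1132 and 1187 CPM at low, 1231, 1246 and 1216 CPM at medium and 1171, 1062 and 894 CPM at high density. High replicate 3 was its lowest library and high replicate 1 lay inside the low range, with a log2 fold change of -0.14 against low (SE 0.10, edgeR adjusted p 0.405) and -0.24 against medium density (SE 0.10, edgeR adjusted p 0.0979). Vha100-2 measured 139, 140 and 143 CPM at low, 161, 150 and 147 CPM at medium and 152, 138 and 106 CPM at high density. Its high libraries spanned the low ones (-0.09, SE 0.12, edgeR adjusted p 0.625), and without high replicate 3 the log2 fold change was 0.05. VhaAC39-1 (subunit d, which couples the ring to the shaft) averaged 138 ± 16.2 CPM at high and 164 ± 1.63 CPM at low density (means ± SD, n = 3 each; log2 fold change -0.25, edgeR adjusted p 0.107). The accessory protein VhaAC45 measured 243, 235 and 256 CPM at low, 275, 258 and 252 CPM at medium and 240, 211 and 178 CPM at high density. It was called against medium density (-0.32, SE 0.11, edgeR adjusted p 0.0442), with its high libraries below all medium ones, but not against low (edgeR adjusted p 0.209), and the call was lost in 15 of 19 alternatives, among them every fit that left out 1 library other than high replicate 1. Accessory genes without a Vha symbol in the table were ATP6AP2, the prorenin receptor, and CG31030, a relative of VhaAC45. ATP6AP2 averaged 167 CPM at high, against 203 CPM at low (log2 fold change -0.29, edgeR adjusted p 0.0517) and 197 CPM at medium density (-0.24, edgeR adjusted p 0.0462). CG31030 went the other way without a call, with 13.9 CPM at high, against 11.3 CPM at low (0.30, edgeR adjusted p 0.122) and 11.3 CPM at medium density (0.30, edgeR adjusted p 0.0679), and its high libraries lay above the other 6.

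**Figure D2:**
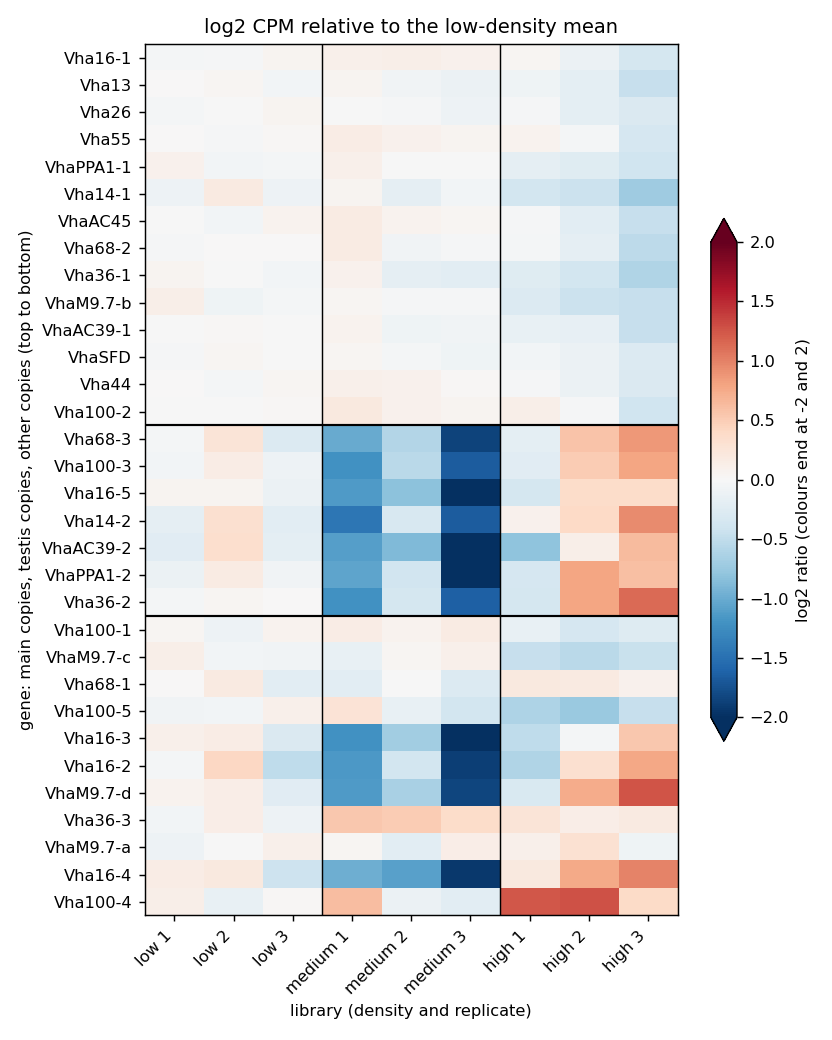
Log2 ratio of CPM in each library to the low-density mean (3 libraries), for 14 main copies (top block), 7 testis copies (middle) and 11 other copies (bottom), each block ordered by mean TPM. The main copies are palest throughout and bluest in high replicate 3, while the testis copies are blue in the medium libraries and red in high replicates 2 and 3.

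These differences of the main copies are small and depend on how the libraries were scaled. The summed CPM of the 14 genes was 3992, 4000 and 4078 CPM at low, 4303, 4103 and 4031 CPM at medium and 3933, 3602 and 3073 CPM at high density. Every high library lay below the other 6 on this scale, which uses TMM factors. In TPM the same genes summed to 2770, 2896 and 2843 TPM at low, 2762, 2784 and 2608 TPM at medium and 2850, 2915 and 2615 TPM at high density, and the 3 groups overlapped. With library totals alone in place of TMM factors, the median gene moved to a log2 fold change of 0.21 against low and 0.26 against medium density, that of the main copies moved to -0.08 and 0.015, and the calls among the main copies dropped to 1 lower against low and 0 against medium density. Under that scaling 4 of the 14 main copies had log2 fold changes above 0 against low and 8 of 14 against medium density, none of them called. The median of the main copies minus that of all genes, against low density, was -0.28 or -0.29 with TMM, RLE, upper-quartile and total scaling. With DESeq2 it was -0.30. A change of scaling factors moves all genes by about the same amount, so this difference could hardly vary and does not test the scaling. Without high replicate 3 this difference was -0.15, and the median of the main copies was -0.11 against low and -0.13 against medium density. The count of 4 main copies called against low density was 0 without low replicate 1, low replicate 3 or high replicate 2; it was 1 without low replicate 2, and 2 when leaving out high replicate 3, medium replicate 2 or medium replicate 3. Against medium density it was 1 without medium replicate 1 and 2 without medium replicate 3. It was 12 without high replicate 1, when Vha68-2, Vha55, Vha44, Vha36-1, Vha13, Vha100-2, Vha16-1 and VhaAC39-1 were called lower as well. The share of all genes called lower in that fit was not counted, so the 12 has no background beside it.

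Tissue markers were summed beside the main copies, and at high density only the salivary gland sum lay apart from both other densities. In whole larvae, fewer cells of a type and less RNA per cell cannot be told apart. The 4 salivary gland genes summed to between 27074 and 31516 CPM at low, 25638 and 30968 CPM at medium and 12068 and 21353 CPM at high density; 2 of the 4 were called lower and 1 higher at high against low density, and 3 lower and 1 higher against medium. The 3 muscle genes summed to between 1524 and 2180 CPM at low, 1731 and 3165 CPM at medium and 2452 and 6567 CPM at high density. Of these 3, 2 were called higher at high against low density and 0 against medium. For 4 fat body genes the sums were 43194 to 48700 CPM at low, 43785 to 69397 CPM at medium and 32296 to 49378 CPM at high density. At high density 1 of 4 was called lower against low and 1 of 4 against medium. The 5 midgut genes summed to 307 to 386, 291 to 404 and 314 to 720 CPM at low, medium and high density. At high density 1 was called higher and 1 lower against low, and 0 against medium. The 4 Malpighian tubule genes summed to 46.6 to 66.7, 51.9 to 73.1 and 50.4 to 116 CPM at low, medium and high density. At high density 1 was called lower against low and 1 against medium. Over all genes 11% were called lower and 4.18% higher at high against low density, and 18.3% lower and 21.3% higher against medium. These marker lists are short, and their counts were not tested against those shares. No marker of these lists was called between medium and low density, like all other genes tested (0 of 12883). The part of these markers in the levels of the pump genes was not tested.

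Of the 11 other copies that are not listed for testis, 2 fell at high against low density (18.2%, beside 11% of all genes). Against medium 3 fell and 3 rose (27.3% each, beside 18.3% and 21.3% of all genes). Vha100-1 (3R, 29131193 to 29137980, plus strand) measured 145, 131 and 148 CPM at low, 156, 148 and 159 CPM at medium and 128, 112 and 118 CPM at high density, with the high libraries below all others. It fell against medium density (log2 fold change -0.37 with SE 0.08, edgeR adjusted p 0.00964), a call lost with library totals alone, and was not called against low (-0.24, SE 0.08, edgeR adjusted p 0.0652), but leaving out high replicate 1, or using DESeq2, gave a call. VhaM9.7-c (3L, 4186018 to 4186865, minus strand), a second copy of subunit e, had the smallest joint p of all 32 genes. It measured 25.7, 23.0 and 22.6 CPM at low, 21.5, 24.3 and 25.4 CPM at medium and 17.3, 16.4 and 17.4 CPM at high density. The 3 high libraries lay close together and below the other 6. The log2 fold change was -0.48 against low (SE 0.09, edgeR adjusted p 0.0127), lost without low replicate 1, and -0.48 against medium density (SE 0.09, edgeR adjusted p 0.00869). With library totals alone in place of TMM factors VhaM9.7-c and VhaM9.7-b kept their calls against low density, but lost those against medium (-0.23, edgeR adjusted p 0.0848, and -0.14, edgeR adjusted p 0.0831). Under that scaling 13 members were called higher and 0 lower against medium, while the median over all genes moved to 0.26. The share of all genes called under it was not counted, so these counts have no background beside them.

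Vha100-5, a further subunit a copy, averaged 22.3 ± 2.21 CPM at high, against 33.8 ± 2.31 CPM at low and 32.6 ± 7.53 CPM at medium density (SD, n = 3 each). It fell by 0.60 in log2 units against low (SE 0.16, edgeR adjusted p 0.039) and by 0.55 against medium density (SE 0.16, edgeR adjusted p 0.0269). The first call was lost without any 1 low library, without high replicate 1 or 2 and without medium replicate 2, and the second without high replicate 1, high replicate 2 or medium replicate 1. Vha68-1, the second somatic copy of the catalytic subunit, averaged 48.6 ± 1.98 CPM at high and 39.1 ± 3.64 CPM at medium density (SD, n = 3 each), and its high libraries all lay above the medium ones, the opposite direction to the main copies (log2 fold change 0.31, edgeR adjusted p 0.0516). It was called higher in 10 of 19 alternatives, among them DESeq2, RLE factors, library totals alone and the fits without medium replicate 2, low replicate 2 or low replicate 3. Vha100-4 stayed under 3 CPM everywhere, at 2.74, 2.81 and 1.52 CPM in the high libraries and 1.26, 1.05 and 1.17 CPM in the low ones, with no overlap but no call (log2 fold change 1.01, SE 0.32, edgeR adjusted p 0.0703); it was called without high replicate 3 (1.26, edgeR adjusted p 0.0175), with library totals alone and in DESeq2. Vha36-3, a subunit D copy on the X, lay at 8.34 to 9.37 CPM under medium and at 6.05 to 7.12 CPM under low density. These groups did not overlap, but edgeR gave no call (0.47, SE 0.12, edgeR adjusted p 0.13). DESeq2 called it higher at medium density (0.48, DESeq2 adjusted p 0.0126). VhaM9.7-a lay between 2.95 and 4.21 CPM in all 9 libraries.

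The testis copies varied far more than the main copies, and they were higher at high than at medium density. Between the highest and the lowest library the CPM of a testis copy differed by 5.45-fold to 19.6-fold, and that of a main copy by 1.25-fold to 1.84-fold. Of the 7 testis copies, 6 rose at high against medium density (85.7%; 21.3% of all genes were called higher), and in all 7 the high libraries lay above the medium ones (24.9% of all genes). Their median log2 fold change was 1.53, a median fold of 2.89. The seventh, VhaPPA1-2, had 2.7, 5.88 and 5.16 CPM in the high and 1.63, 2.59 and 0.3 CPM in the medium libraries (log2 fold change 1.59, SE 0.58, edgeR adjusted p 0.0588). Against low density 0 of the 7 were called, with log2 fold changes from 0.10 to 0.65.

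Vha68-3, the testis copy of the catalytic subunit and the most abundant of the 7, measured 28.2, 34.7 and 23.9 CPM at low, 14.4, 19.3 and 8.04 CPM at medium and 25.2, 42.8 and 52.7 CPM at high density. The medium libraries were the 3 lowest and high replicates 2 and 3 the highest, with high replicate 1 inside the low range. It rose against medium density (1.53 in log2 units, SE 0.35, edgeR adjusted p 0.0127) but was not called against low (0.48, SE 0.34, edgeR adjusted p 0.383). Vha100-3 (2R, 18908961 to 18911895, minus strand), the testis copy of subunit a, had the same order of groups. It measured 22.2, 25.6 and 21.5 CPM at low, 10.0, 15.9 and 7.29 CPM at medium and 19.8, 32.7 and 39.7 CPM at high density, a log2 fold change of 1.47 against medium (SE 0.32, edgeR adjusted p 0.0108). Vha16-5 (2L, 10736319 to 10737043, minus strand), a ring subunit copy, measured 6.43, 6.41 and 5.73 CPM at low, 2.84, 3.49 and 1.35 CPM at medium and 4.85, 8.01 and 7.98 CPM at high density. It rose against medium (log2 fold change 1.44 with SE 0.33, edgeR adjusted p 0.0129). The rotor copies Vha36-2 (1.605, edgeR adjusted p 0.0175) and Vha14-2 (1.53, edgeR adjusted p 0.0148) and the subunit d copy VhaAC39-2 (1.39, edgeR adjusted p 0.0315) rose as well. Without medium replicate 1 none of these 3 was called. VhaAC39-2 and Vha36-2 also lost their calls without medium replicate 3 or high replicate 2 and in the fit of only the 2 groups compared. VhaAC39-2 lost it too without high replicate 3, with the replicate block and in limma voom.

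The count of 6 testis copies called was 3 without medium replicate 1, 4 without medium replicate 3 or high replicate 2, and 7 without high replicate 1 or medium replicate 2. Shares of all genes called in these fits were not counted. The mean log2 CPM of roX1 and roX2, RNAs made by males, was then added to the fit as a covariate. With it 0 of the 7 were called, and the background of higher calls was 2.31% of all genes. The log2 fold changes of Vha68-3, Vha100-3 and Vha16-5 were 0.86, 0.89 and 0.86. That fit called 1 of the 32 members, VhaM9.7-c (6.47% of all genes were called lower).

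Markers of the testis itself moved with these genes. Of 16 spermatocyte genes, all 16 were called higher at high against medium density (21.3% of all genes) and 0 at high against low (4.18% of all genes), and none was at 0 in any library. The most abundant per length was Mst87F, with 47.9, 59.6 and 44.4 CPM at low, 28.1, 37.0 and 20.4 CPM at medium and 44.1, 75.0 and 91.6 CPM at high density (high against medium 1.30, SE 0.29, edgeR adjusted p 0.0118). The smallest joint p was that of tomb, which averaged 3.25 CPM at high and 0.846 CPM at medium density (1.93, SE 0.28, edgeR adjusted p 0.00375). Summed over the list the markers had 450, 530 and 411 CPM at low, 221, 309 and 155 CPM at medium and 379, 650 and 790 CPM at high density. The 7 testis copies summed to 80.0, 97.6 and 74.7 CPM at low, 38.2, 57.2 and 23.3 CPM at medium and 71.1, 119 and 147 CPM at high density. The libraries kept the same order in both sums, with medium replicate 3 lowest and high replicate 3 highest. Per 100 CPM of spermatocyte markers there were 17.8, 18.4 and 18.2 CPM of testis copies at low, 17.3, 18.5 and 15.04 CPM at medium and 18.8, 18.4 and 18.7 CPM at high density. The roX RNAs summed to 792, 531 and 345 CPM at low, 205, 423 and 137 CPM at medium and 361, 611 and 599 CPM at high density. Here low replicate 1 was the highest library, and neither RNA was called in any comparison (the smallest edgeR adjusted p was 0.0933, for high against medium). The part of the testis markers in the levels of these copies was not tested.

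**Figure D3:**
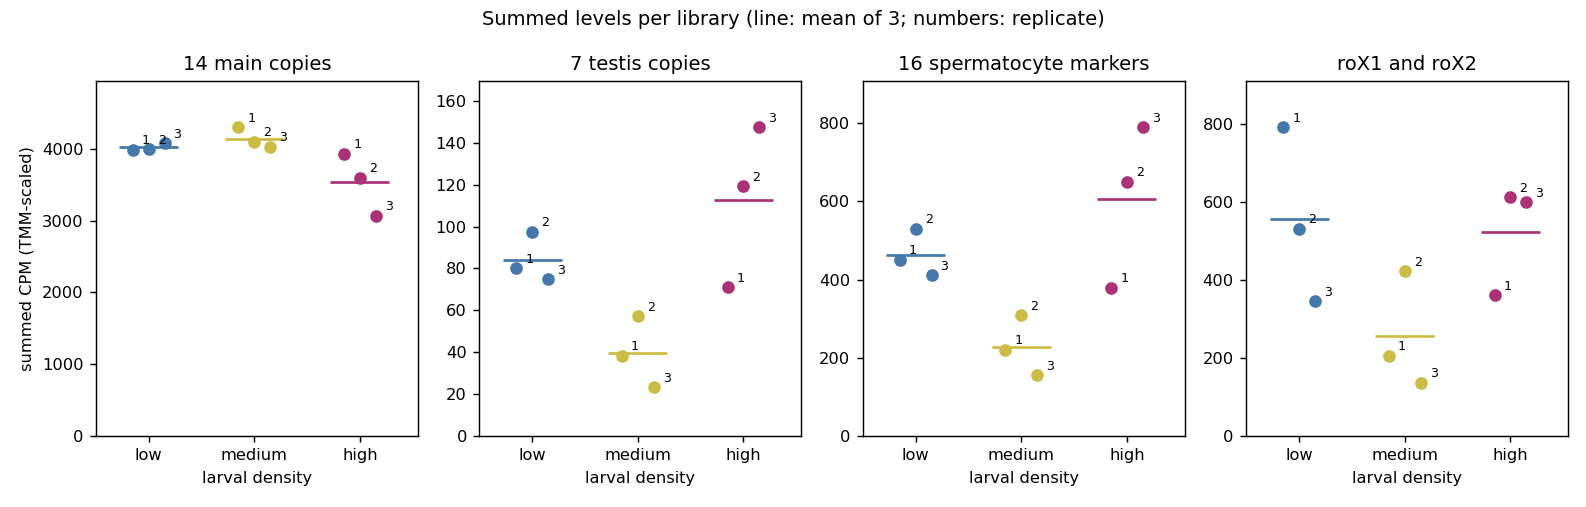
Summed TMM-scaled CPM per library of the 14 main copies, the 7 testis copies, 16 spermatocyte markers and the 2 roX RNAs, by larval density; each axis starts at 0, lines are means of 3 libraries and small numbers name the replicate. The middle 2 panels have the same shape, from 23.3 and 155 CPM in medium replicate 3 to 147 and 790 CPM in high replicate 3, while the main copies stay between 3073 and 4303 CPM.

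A group of 4 copies outside the list of testis genes, picked out after their values were seen, had the same order of densities: the ring subunit copies Vha16-2, Vha16-3 and Vha16-4 and the subunit e copy VhaM9.7-d. Vha16-4 (2R, 16947658 to 16948224, minus strand) measured 1.26, 1.3 and 0.857 CPM at low, 0.577, 0.536 and 0.3 CPM at medium and 1.31, 1.93 and 2.26 CPM at high density. Its 3 groups did not overlap, although its medium libraries held few counts, and it had the largest rise of any member against medium density (1.94, SE 0.35, edgeR adjusted p 0.00675). Vha16-3 (1.28, edgeR adjusted p 0.0252) and VhaM9.7-d (1.82, edgeR adjusted p 0.0132) also rose. The call of Vha16-3 was lost without high replicate 2 or 3 or medium replicate 1 or 3, and in the fit of only the 2 groups compared. Vha16-2 did not pass the threshold (1.27, edgeR adjusted p 0.0577), and its high and medium libraries overlapped. With the roX covariate none of the 4 was called. Together they had between 2.32 and 3.19 CPM per 100 CPM of spermatocyte markers in every library. Because the 4 were picked for this order of densities, that range is no separate evidence of a link to the testis, which was not tested.

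**Figure D4:**
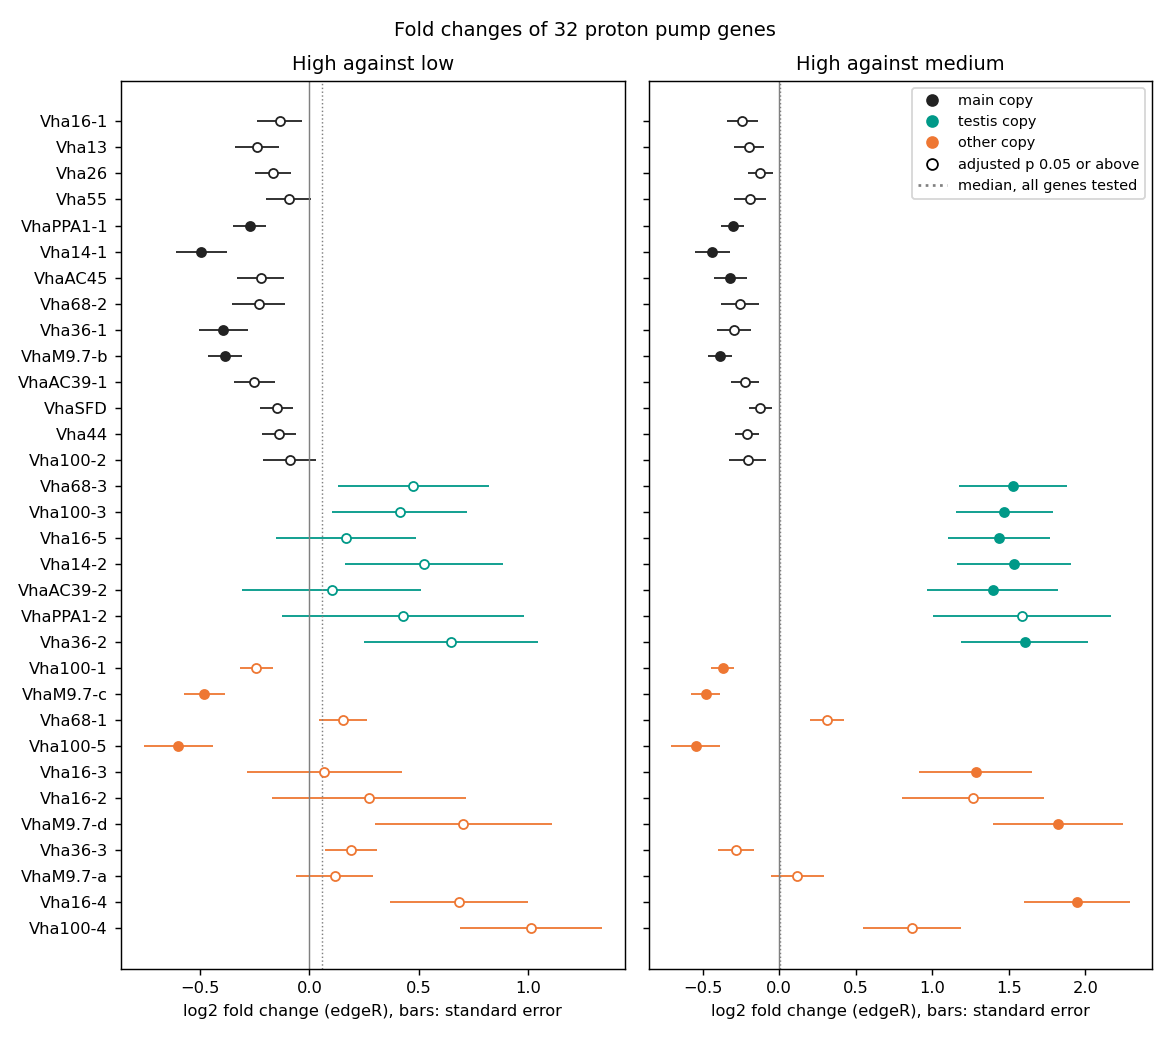
Log2 fold change of each gene at high against low density (left) and high against medium density (right), with standard errors; filled points passed an adjusted p of 0.05 and the dotted line is the median of all genes tested. With TMM scaling, main copies lie between -0.49 and -0.09 on the left, where library totals alone turn 4 of them (Vha55, Vha100-2, Vha16-1 and Vha44) to just above 0, and the testis copies lie between 1.39 and 1.605 on the right.

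Medium against low density asks whether moderate crowding differs from sparse culture. No member was called by edgeR, like all other genes (0 of 12883, 0.0%), while 10 of the 32 had an unadjusted p under 0.05 (25% of all genes). The main copies had a median log2 fold change of 0.013, beside 0.018 over all genes. In all 7 testis copies the medium libraries lay below the low ones (22.2% of all genes), with log2 fold changes from -1.29 to -0.96. Those of Vha68-3, Vha100-3, Vha16-5 and Vha16-4 were -1.05 (SE 0.35, edgeR adjusted p 0.133), -1.06 (SE 0.32, edgeR adjusted p 0.13), -1.27 (SE 0.33, edgeR adjusted p 0.13) and -1.26 (SE 0.35, edgeR adjusted p 0.13). DESeq2 called 7 members, of which 6 were lower (9.48% of all genes it gave an adjusted p) and 1, Vha36-3, higher (3.52%), with 4 testis copies among the 6. Without medium replicate 2 edgeR called 4 members, all lower, 3 of them testis copies. The share of all genes called in that fit was not counted, so these 4 calls have no background beside them.

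The mix of copies within a subunit was compared as shares of that subunit's TPM, which do not depend on scaling between libraries. Main copies held most of the transcripts of every subunit but a. For subunit c, Vha16-1 held a mean of 93.4% at low, 97.2% at medium and 91.5% at high density, and VhaPPA1-1 held 92.7% to 99.7% of c″ over the 9 libraries. In subunit A, Vha68-2 held 81.4% ± 2.41 at low, 86.0% ± 2.67 at medium and 74.8% ± 5.86 at high density (SD, n = 3 each). The testis copy Vha68-3 took 7.8% ± 1.24, 3.9% ± 1.62 and 12.1% ± 5.17 at the same densities, and the rest was Vha68-1. Subunit a was the exception, divided between Vha100-2 and Vha100-1. Vha100-2 held 41.0% ± 0.787 at low, 43.2% ± 0.114 at medium and 42.4% ± 5.56 at high density (SD, n = 3 each), and Vha100-1 held 40.3%, 42.8% and 37.7%. The difference in the Vha100-2 share was 1.4 percentage points for high against low (exact permutation p 0.7), -0.751 for high against medium (exact permutation p 1.0) and 2.15 for medium against low (exact permutation p 0.1); all tests were two-sided, and 0.1 is the smallest p that 3 against 3 libraries can give. The single high libraries lay between 36.1% and 46.6%. Subunit e was mostly VhaM9.7-b (70.6% to 75.5% per density) and VhaM9.7-c (16.99% to 19.4%).

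**Figure D5:**
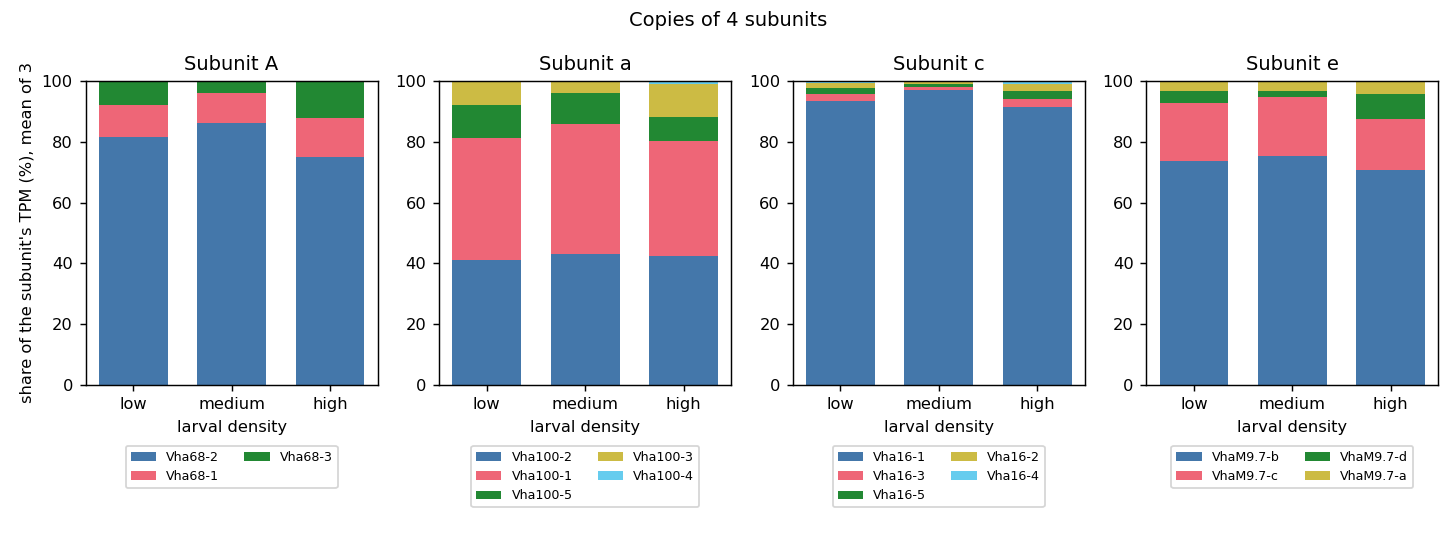
Mean share of each gene in the TPM of subunits A, a, c and e at low, medium and high density (stacked bars, 3 libraries each, axis from 0 to 100%). Vha16-1 fills over 90% of subunit c at each density, while Vha100-2 and Vha100-1 hold similar parts of subunit a.

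Genes that work with the pump were followed in 3 lists. Their values come from the edgeR fit with TMM factors and all 9 libraries, and the lists were not followed through the alternatives. The first holds 14 regulators: Mitf, the factor known in flies to drive V-ATPase and lysosomal genes, the RAVE-type assembly proteins Rbcn-3A and Rbcn-3B, and parts of the lysosomal TORC1 machinery that senses amino acids. Of the 13 tested, 6 fell and 0 rose at high against low density (46.2% lower; 11% of all genes) and 8 fell and 0 rose against medium (61.5% lower; 18.3% of all genes), with median log2 fold changes of -0.31 and -0.38; the remaining gene, CG5189, was listed at 0 in all libraries. The most abundant per length, CG14184 (now Lamtor1, an anchor of TORC1 on the lysosome), averaged 28.01 ± 2.23 CPM at high, against 36.7 ± 0.61 CPM at low and 36.4 ± 2.27 CPM at medium density (SD, n = 3 each). It fell by 0.39 (log2) against low (SE 0.08, edgeR adjusted p 0.0175) and by 0.38 against medium (SE 0.08, edgeR adjusted p 0.0111). CG14977 (now Lamtor4), with the smallest joint p, fell by 0.59 (edgeR adjusted p 0.00547) and 0.54 (edgeR adjusted p 0.0055). Mitf itself measured 104, 98.5 and 109 CPM at low, 115, 124 and 119 CPM at medium and 111, 104 and 101 CPM at high density and was not called against low (0.02, edgeR adjusted p 0.823) or medium (-0.18, edgeR adjusted p 0.063).

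The second list holds 18 lysosomal enzymes and membrane proteins. Of these, 8 fell at high against low density (44.4%; 11% of all genes) with a median log2 fold change of -0.66. Against medium 13 fell (72.2%; 18.3% of all genes) and 1, Gba1a, rose (21.3% of all genes), with a median of -0.81. The protease gene cathD (cathepsin D) averaged 664 ± 8.52 CPM at high, against 1042 ± 75.5 CPM at low and 1217 ± 145 CPM at medium density (SD, n = 3 each; log2 fold changes -0.65, edgeR adjusted p 0.00638, and -0.88, edgeR adjusted p 0.00209). CtsB1 (cathepsin B) averaged 277 ± 29.2 CPM at high, against 590 ± 42.1 CPM at low and 570 ± 8.74 CPM at medium density (-1.09, edgeR adjusted p 0.00121, and -1.04, edgeR adjusted p 0.0012). Its high libraries were all far below the other 6. With TMM factors and all 9 libraries, the median change of the lysosomal list was thus larger in size than that of the main pump copies, -0.23 in both comparisons. The difference between the lists was not tested, nor was its dependence on scaling or on single libraries.

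The third list holds 23 transporters, channels and enzymes that work beside the pump in ion-moving epithelia. At high against low density 10 fell (43.5%; 11% of all genes) and 2 rose (8.7%; 4.18% of all genes), with a median log2 fold change of -0.38. Against medium 10 also fell (18.3% of all genes) and 2 rose (21.3% of all genes), with a median of -0.41. ClC-b, an endosomal and lysosomal chloride transporter of the ClC family, averaged 47.0 ± 3.18 CPM at high, against 64.0 ± 2.71 CPM at low and 69.9 ± 4.68 CPM at medium density (SD, n = 3 each; -0.45, edgeR adjusted p 0.00836, and -0.57, edgeR adjusted p 0.0028). CAH1, the most abundant per length and a carbonic anhydrase that yields protons from carbon dioxide, measured 96.0, 75.1 and 214 CPM in the high and 209, 242 and 273 CPM in the low libraries. High replicate 3 lay inside the low range, and the gene was not called (-0.91, SE 0.34, edgeR adjusted p 0.112). No gene of the 3 lists was called between medium and low density, like all other genes tested (0 of 12883).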

How the data were processed

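The deposited table holds expected counts, which the authors did not normalize. Per the file headers, featureCounts 1.6.2 assigned read pairs to exons (RefSeq gene models, Release 6 genome) on the reverse strand, with a fraction for each place of a multi-mapping pair. Trim Galore 0.6.4, HISAT2 2.1.0 and SAMtools 1.9 are named in the submitters' processing notes. After rounding, edgeR 4.0.16 (R 4.3.3) was used with filterByExpr (12883 genes kept), TMM factors, 1 dispersion fit over 9 libraries, the quasi-likelihood F-test and Benjamini-Hochberg adjustment over all genes tested. The fit was tested on simulated data. CPM are TMM-scaled; TPM are counts per exon length. Each SE is the size of the log2 fold change divided by the root of F. Replicate libraries differed beyond sampling noise (chi-square per degree of freedom 14.6 to 169.2).

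The 13 members with values in every library were those with the 8 smallest joint p-values, plus the most abundant copy of subunits A, B, a and c and VhaAC45. In the other lists the most abundant gene and that with the smallest joint p are named; further genes, such as Mitf, were chosen freely. Of the 4 tubule genes, 3 are also in the ion transport list. Members and lists were chosen with earlier results of these data known. Alternatives, 19 per comparison, were DESeq2 1.42.0, limma voom (limma 3.58.1), RLE or upper-quartile factors, library totals, dropping the filter, requiring 10 counts in all 9 libraries, only the 2 groups compared, replicate block, roX covariate and leaving out each library. The motif search planned for promoters was not made, and no sequences are printed.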

Additional observations from a re-analysis of the deposited data

How the results depend on the processing

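The spread between 3 pools per density, beyond counting error, limits these results. For copies with few reads, such as Vha16-4 and VhaPPA1-2 with counts down to 6, counting error adds to it. Between high and low density 6 members were called. The count was 3 with upper-quartile factors, 3 with library totals alone (2 of the same 6, and Vha100-4 higher) and 2 in the fit of only those 2 groups. It ranged from 0 to 6 when single libraries were left out, with at most 5 of the same members: 0 without low replicate 1, 1 without low replicate 3 or high replicate 2, 2 without low replicate 2 and 3 without medium replicate 2. The 16 calls between high and medium density became 1 with the roX covariate and ranged from 9 (without medium replicate 1) to 25 (without high replicate 1). The 0 calls between medium and low density became 7 in DESeq2 and ranged from 0 to 4 (without medium replicate 2). Shares of all genes called without single libraries or with other scaling factors were not counted, so those counts have no background beside them. The median log2 fold change of the main copies with single libraries left out ranged from -0.32 to -0.11 (high against low), -0.33 to -0.13 (high against medium) and -0.03 to 0.04 (medium against low); with library totals alone the last 2 were 0.015 and -0.0901. With library totals alone, values of 4 main copies against low and 8 against medium density turned positive. Among the members named with values in every library these were, against low, Vha55 at 0.0504, Vha100-2 at 0.0517 and Vha16-1 at 0.0077, and against medium Vha55 at 0.0545, Vha100-2 at 0.0392 and Vha16-1 at 0.0058. With single libraries left out, Vha55 against low ranged from -0.1854 (without high replicate 1) to 0.0175 (without high replicate 3) and Vha100-2 from -0.2086 to 0.0472 in the same fits. The difference in the Vha100-2 share with single libraries left out ranged from -0.684 (without high replicate 1) to 4.55 for high against low, from -2.83 to 2.40 (without high replicate 3) for high against medium and from 1.895 to 2.604 percentage points for medium against low, and it kept its direction with counts not divided by length. The cause of these changes was not tested.

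Replicate numbers did not pair the libraries: correlations of same-numbered deviations ran from -0.339 to 0.279, and 1 of 9 libraries correlated best with its own number in both other groups. With the replicate block, 4, 16 and 0 members were called for high against low, high against medium and medium against low.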
